A study of Mus musculus with 19 samples.

Results

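The cells described here are GABAergic neurons of the mouse lateral hypothalamic area (LHA) with few or no counts of Mc4r, Calcr, Asb4 and Tac2. They are 60 of 1612 wells that the deposited table marks as LHA cells. A member had at least 1000 table rows detected, at least 10 counts of Snap25, under 1% of its counts from Hcrt and from Pmch, fewer than 3 counts of Mc4r, Calcr and Asb4 summed, fewer than 3 of Tac2, at least 5 of Gad1 and Gad2 summed, and no more Slc17a6 than Slc32a1. These measured values chose the members, so the levels of the 11 genes of the rule are a description and carry no test. All wells came from 1 group of animals with no treatment in the labels: 7 males of the cross Agrp-IRES-Cre x Ai9, at 6 to 8 weeks of age. In these mice Cre from the Agrp locus switches on tdTomato in AGRP neurons of the arcuate nucleus, and their red axons were used to find the borders of the LHA. Non-fluorescent cell bodies were picked by hand after protease digestion into 19 plates of 96 wells, and libraries followed Smart-SCRB, which gives molecules a barcode for the well and one for the molecule, the unique molecular identifier (UMI). Which mouse filled which plate is not in the labels. Plates are therefore not known to be separate animals. The p-values set a difference between sets against its variation over plates, and can be smaller than they should be.

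GABAergic neurons make the inhibitory transmitter GABA with the glutamate decarboxylases Gad1 and Gad2 and load it into vesicles with the transporter Slc32a1. In the LHA such neurons lie among the orexin neurons (Hcrt) and the melanin-concentrating hormone neurons (Pmch), and many also release neuropeptides. AGRP neurons are themselves inhibitory and release GABA, neuropeptide Y and AGRP, and AGRP blocks the melanocortin receptor encoded by Mc4r. Calcr encodes the calcitonin receptor, Asb4 a ubiquitin ligase adaptor and Tac2 neurokinin B.

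The rule reduced the wells in steps. Of 1612 LHA wells, 1534 reached 1000 rows and 1365 also had 10 Snap25 counts. The Hcrt limit left 427 and the Pmch limit 360. The sum of Mc4r, Calcr and Asb4 was under 3 in 178 of these, the Tac2 limit and the Gad minimum together left 66, and the transporter clause left 60. Members were thus 16.7% of the 360 neurons outside both peptide limits (exact 95% interval 12.97 to 20.93, counting error only). They came from 15 of 19 plates, with 16 from plate Q7_114, 9 from plate Q6_113, 8 from plate Q8_111, 7 from plate Q6_109 and 4 or fewer from each of the others. Cells were picked by hand, so shares describe the picked cells.

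A further 3 sets of wells under the same Snap25, Hcrt and Pmch limits served for comparison. The Mc4r set held 182 wells with at least 3 counts of Mc4r, Calcr and Asb4, of which 167 also met both GABA clauses and 19 had at least 3 Tac2 counts. The Tac2 set held 67 wells with at least 3 Tac2 counts and a low Mc4r sum, of which 66 met the GABA clauses. The glutamatergic set held 37 wells with more Slc17a6, the vesicular glutamate transporter, than Slc32a1 and under 5 Gad counts. The other 14 wells fell in none of these.

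The Mc4r sum was 0 in 47 members, 1 in 9 and 2 in 4. Tac2 was 0 in 55 members, 1 in 4 and 2 in 1. A total of 43 members had no count of any of the 4 genes. Just outside the limits, 7 wells had a Mc4r sum of 3 and 10 a sum of 4, against 127 wells with 10 or more, and no Tac2 set well had exactly 3 Tac2 counts. At the Gad minimum, 1 member had 5 counts and 1 excluded well had 4.

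**Figure D1:**
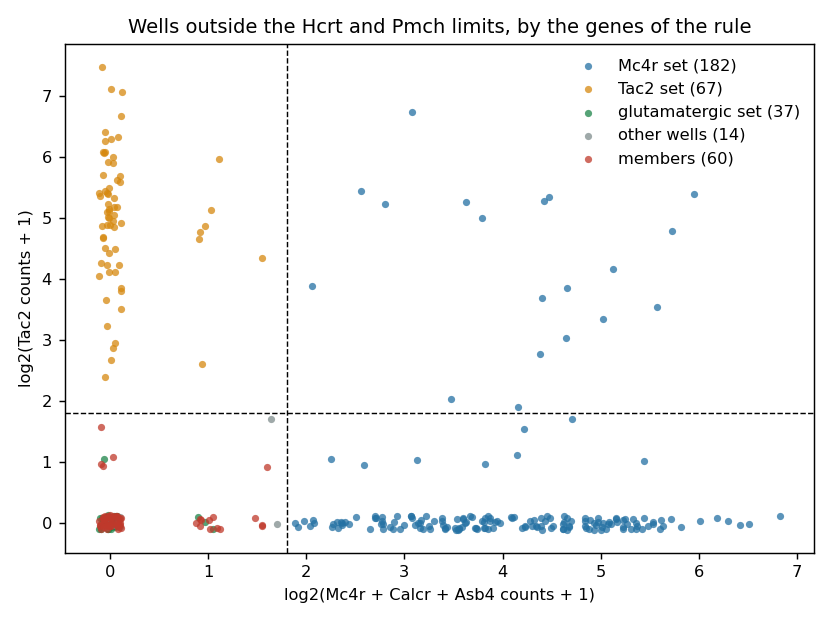
Each point is 1 of the 360 wells outside the Hcrt and Pmch limits, placed by log2 of its summed Mc4r, Calcr and Asb4 counts plus 1 (x axis) and of its Tac2 counts plus 1 (y axis), with a small random shift; dashed lines mark the limit of 3 counts. The 60 members crowd at the origin, the 182 wells of the Mc4r set spread to the right, and 19 of those also lie above the Tac2 limit.

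Members were shallower than the other sets. A member well had a median of 22085 UMIs (10142 to 46295) against 26915 in the Mc4r set, 25452 in the Tac2 set and 25525 in the glutamatergic set. On the 9 plates with at least 2 wells of both, the plate medians averaged 20086 ± 3129 UMIs (SD, n = 9) in members and 27172 ± 7516 in the Mc4r set. The members were lower on 9 of 9 plates (exact sign-flip permutation test, two-sided, p = 0.00391, the smallest that 9 plates can give). The Mc4r and Tac2 limits are absolute counts, which a shallower well can pass more readily. Depth and membership can thus be tied by the rule, so this p-value is no test of a trait of the cells. The glutamatergic set met the same limits at its median of 25525 UMIs. How far the rule bears on the members' depth was not tested. With members limited to those with no count of the 4 genes, the difference was -2860 UMIs over 7 plates (exact permutation p = 0.156), against -7086 over the 9 plates. The share of counts on ERCC spike-ins was higher in members on 8 of 9 plates, 7.37% ± 2.09 against 6.01% ± 1.29 (exact permutation p = 0.00781). Because the rule limits counts and the sets differ in depth, levels are given as CPM, counts scaled to the well or plate total, and shares of wells also after thinning each well to 10000 UMIs, which left out none.

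Neuronal genes were present in every member and markers of other cell types were low in all but 1. Every member had at least 20 counts of 8 pan-neuronal genes, a sum that the Snap25 minimum of the rule partly fixes. Summed astrocyte markers had a median of 0 CPM and reached 103.8 CPM, with 3 of 7 markers at 0. Microglial markers reached 89.5 CPM with 5 of 7 at 0, and endothelial markers 62.3 CPM with 3 of 6 at 0. Oligodendrocyte markers had a median of 0 counts, but 1 member held 1071 such counts while the next held 15. In the Mc4r set 1 well held 2509, and results are also given without these wells where they differ. The wells marked as ERCC or empty had a median of 172 UMIs, though 2 of them exceeded 1000 and 1 reached 100707. Hcrt was found in member wells at 10 to 195 counts (median 36), and in the ERCC and empty wells at a median of 15.5. All 384 well barcodes were reused in 2 to 5 plates, which were separate libraries. Doublets were not called, as each well received a hand-picked cell. No member had a tdTomato count, while WPRE, another element of the Ai9 reporter, had 19 counts over 10 of 60 members and 119 counts over 46 of 182 Mc4r set wells.

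The GABA genes were part of the rule, and their levels are given as a description. Gad1 had a count in 59 of 60 members (98.3%, 91.1 to 100) and a pooled level of 481 CPM, against 561 CPM in the Mc4r set, 590 CPM in the Tac2 set and 5.68 CPM in the glutamatergic set. Gad2 had a count in 57 members (exact interval 86.1 to 99.0%) at 735 CPM, against 675, 756 and 8.52 CPM. Slc32a1 was sparser, with a count in 36 members (exact interval 46.5 to 72.4%; 35.0% of members after thinning) and at most 9 counts in a well. Slc17a6 had 1 count in 1 member, and 24 members had 0 counts of both transporters. Over the 9 plates with at least 2 members, Gad1 ran from 339.6 to 791 CPM (median 464), Gad2 from 487 to 1504 CPM (median 896) and Slc32a1 from 0 to 173 CPM (median 75.7). Gad1 and Gad2 were present on all 9 of these plates.

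Pnoc, the precursor of the inhibitory peptide nociceptin and the only listed marker of these cells that the rule did not use, marked some of them. It had a count in 27 of 60 members (45.0%, 32.1 to 58.4), and 16 had at least 10 counts, with a highest of 98. The same share was 20.9% in the Mc4r set (15.2 to 27.5), 29.9% in the Tac2 set (19.3 to 42.3) and 16.2% in the glutamatergic set (6.19 to 32.0). After thinning, these shares were 45.0%, 12.6%, 26.9% and 13.5%. None of the ERCC and empty wells had a Pnoc count. The members' pooled level was 317 CPM, against 49.9, 128 and 35.0 CPM. By plate, members ranged from 0 to 761 CPM with a median of 271 CPM, and were at 0 on 1 of 9 plates. Pnoc thus had no count in 33 members.

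Other neuropeptides were spread over the members in a mosaic. Gal, which encodes galanin, had a count in 42 members and at least 10 counts in 29. Nts, which encodes neurotensin, had a count in 31 and at least 10 in 19. Cartpt, the precursor of CART peptides, had a count in 31 but at least 10 in only 9. Penk, the enkephalin precursor, had a count in 23 and at least 10 in 13. Tac1, the substance P precursor, reached 10 counts in 12 members, Crh, corticotropin-releasing hormone, in 5, and Sst, somatostatin, in 2. At least 10 counts of some listed peptide were found in 49 of 60 members, of 2 or more in 31, and of none in 11. Penk and Gal were both at 10 counts in 9 members, Nts and Cartpt in 9 and Nts and Tac1 in 9, while Penk and Pnoc were so in 1. The ERCC and empty wells bear on the low counts only. Cartpt had a count in 18.3% of them, Nts in 9.62% and Gal in 6.73%.

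The same peptides stood at other levels in the comparison sets. Pooled Gal was 1732 CPM in members, 2292 CPM in the Mc4r set, 1299 CPM in the Tac2 set and 106.1 CPM in the glutamatergic set. Pooled Nts was 489 CPM in members but 4428 CPM in the Mc4r set, 353 CPM in the Tac2 set and 84.3 CPM in the glutamatergic set. Cartpt followed with 584, 6612, 107.1 and 418 CPM, in the same order. Crh gave 96.9, 451, 11.7 and 1.89 CPM, and Penk 266, 837, 385 and 57.8 CPM. A Crh count was found in 16.7% of members (8.29 to 28.5) and 52.7% of the Mc4r set (45.2 to 60.2), or 16.7% and 47.3% after thinning. Penk had a count in 38.3% and 81.3% of these sets, or 35.0% and 75.8% after thinning. The shares for the Mc4r set lay above those of members for Gal, Nts, Cartpt, Penk, Tac1 and Crh both before and after thinning, and below for Pnoc.

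**Figure D2:**
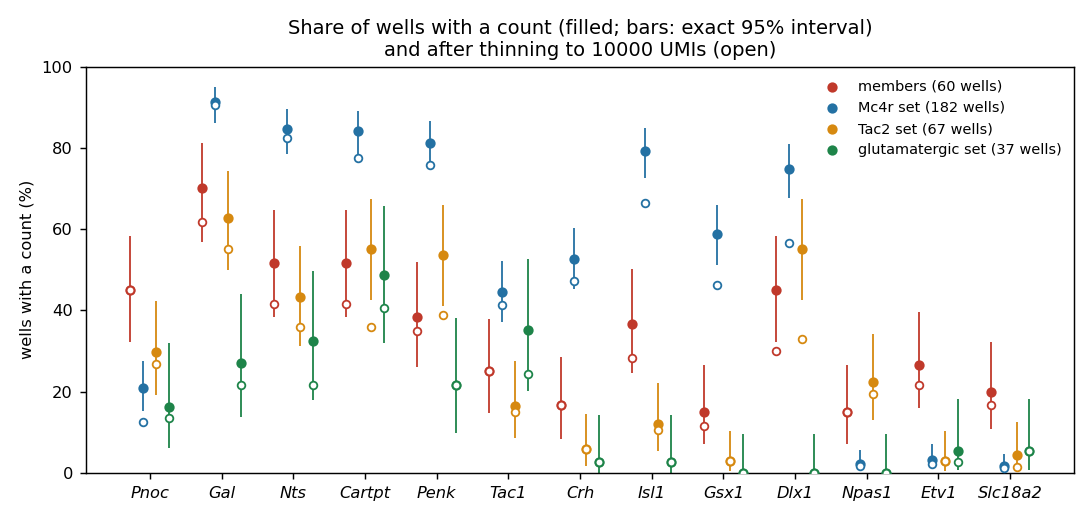
Share of wells with at least 1 count (y axis, %) for 13 genes in members, the Mc4r set, the Tac2 set and the glutamatergic set; filled points are all counts with exact 95% intervals, open points are after thinning to 10000 UMIs. Pnoc, Npas1, Etv1 and Slc18a2 lie higher in members than in the Mc4r set, and the other 9 genes lie lower.

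Transcription factors of GABAergic lineages were present at low counts. Dlx1, a homeobox factor of forebrain GABAergic neurons, had a count in 27 members (45.0%, 30.0% after thinning), against 74.7% and 56.6% in the Mc4r set, and in none of 37 glutamatergic wells, which allows a share of up to 9.49%. Isl1, a LIM-homeobox factor, had a count in 22 members (36.7%; 28.3% after thinning), against 79.1% and 66.5% in the Mc4r set and 11.9% and 10.4% in the Tac2 set. Pooled Isl1 was 78.3 CPM in members, 183 CPM in the Mc4r set and 13.3 CPM in the Tac2 set. Gsx1, a homeobox factor of progenitors and some hypothalamic neurons, had a count in 15.0% of members and 58.8% of the Mc4r set, or 11.7% and 46.2% after thinning. Npas1, a bHLH factor of some GABAergic neurons, showed the opposite order, with 15.0% of members (7.10 to 26.6), 4 of 182 wells of the Mc4r set (0.602 to 5.53%) and 22.4% of the Tac2 set (13.1 to 34.2). Prox1 stood at 43.1 CPM in members and 45.5 CPM in the Mc4r set. Dlx2, at 32.3 CPM, was near its 36.6 CPM in the Mc4r set, and Dlx5 stood at 23.7 against 26.7 CPM. Satb1 was at 27.3 CPM in members and 18.9 CPM in the Mc4r set. Dlx6 was at 20.1 CPM in members and 10.3 CPM in the Mc4r set. Lhx8 had no count on any of the 9 plates, and Lhx6 had one on 1 plate.

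Leiden clustering of the 60 wells gave 4 subgroups, named here by number and leading genes; these genes were used in the clustering and are a description with no test. Subgroup 1 held 20 wells from 13 plates and was led by Col11a1, Pnoc, Etv1, Lrriq1 and Cd24a. Pnoc stood at 838 CPM in it and 41.7 CPM in the other 40 members, with counts in 18 of 20 against 9 of 40 wells. Col11a1, a fibrillar collagen chain, stood at 171 against 2.19 CPM (14 of 20 and 1 of 40 wells), and Etv1, an ETS transcription factor, at 168 against 5.48 CPM (12 of 20 and 4 of 40 wells). No well of subgroup 1 had 10 counts of Penk or Crh, and 7 had 10 counts of Gal. Slc18a2, the vesicular monoamine transporter, had a count in 11 of the 20 wells, with a median of 1 count and at most 16. Of the other 40 wells 1 had counts of it, a subgroup 2 well with 54, the highest. Hdc, the enzyme that makes histamine, had counts in 1 well of subgroup 1 (10 counts) and 1 well of subgroup 2 (36 counts). Hdc and Slc18a2 both had at least 10 counts in 1 member. Slc18a2 and Hdc were singled out after their values were seen. Th, the enzyme that makes the dopamine precursor, had a count in 1 of the 20 wells, and in 4, 1 and 3 wells of subgroups 2, 3 and 4. Lhx1 stood at 37.4 CPM and Meis2 at 56.2 CPM in subgroup 1, and Meis2 was listed at 0 in the other members.

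Subgroups 2 to 4 were less well marked. Subgroup 2 held 17 wells from 7 plates, led by Ezh2, Catsperd, Mef2c, Maob and Prph, each with counts in 1 to 6 of its wells. It had 10 counts of Gal in 10 wells and of Penk in 6, but of Nts in 1 and of Cartpt or Pnoc in none. Subgroup 3 held 15 wells from 5 plates. Its leading genes included the myelin genes Mobp, Mal and Cldn11 with Ptgds, and these came from the 1 well rich in oligodendrocyte markers. Without that well the leaders were Zfp712, Nsun6, Tyw1, Klhl42 and Cbfb, in 1 to 6 of 14 wells. Nts stood at 1203 CPM and Cartpt at 1899.7 CPM in subgroup 3, with 10 counts in 9 and 4 wells. Subgroup 4 held 8 wells and was led by Arc and Egr4, immediate early genes induced by activity, with Rmdn1, Ldlrad3 and Cbl; Arc and Egr4 each had counts in 2 of the 8 wells. At a resolution of 0.5 there were 2 subgroups, and at 1.5 there were 7. The 20 wells of subgroup 1 stayed together at the lower setting, while 10 of them did at the higher one.

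**Figure D3:**
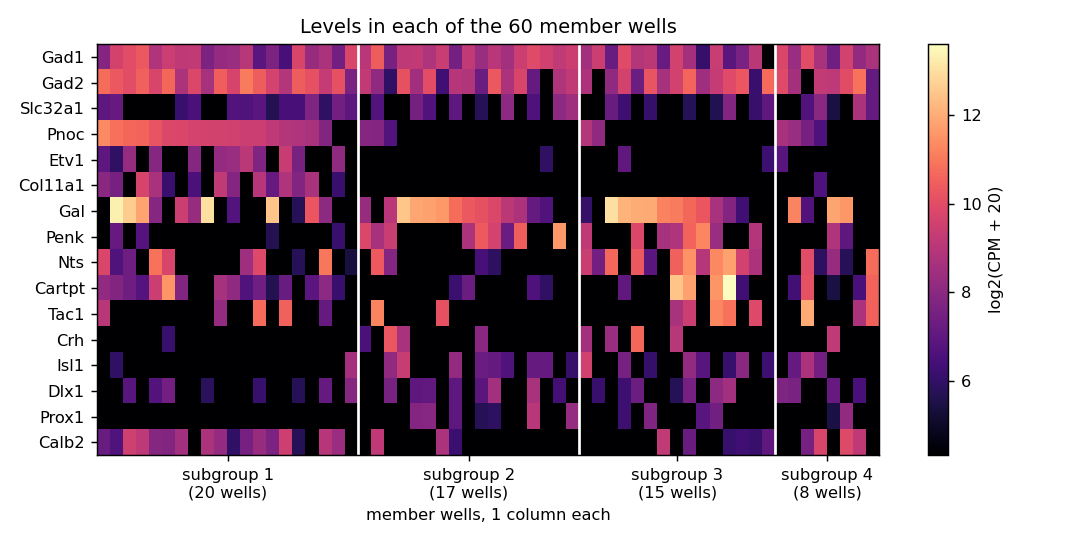
Level of 16 genes (rows) in each of the 60 members (columns), as log2 of CPM plus 20, ordered by subgroup and then by Pnoc and Gal. The Pnoc band fills subgroup 1, 18 of whose 20 wells have a Pnoc count, while no well of it has 10 counts of Penk; Gal reaches 10 counts in wells of all 4 subgroups.

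Counts were summed per plate and set to test members against the Mc4r set. This asks how members differ otherwise from wells with at least 3 counts of Mc4r, Calcr and Asb4 summed. Of the 182 wells of that set, 169 had a count of Asb4, 118 of Calcr and 87 of Mc4r. Both GABA clauses were met by 167 of them. The fit used 9 plates with 54 member and 134 Mc4r set wells, edgeR's quasi-likelihood test with plate as a block, and Benjamini-Hochberg adjustment over 3907 genes. The neurofilament gene Nefl and the calretinin gene Calb2 were higher in members, and Ptn, Crem and Serpine2 were among the lower genes. A call does not tell which set departs from other neurons. Pooled Nefl was 515 CPM in members, 249 in the Mc4r set, 539 in the Tac2 set and 746 in the glutamatergic set. In that order Calb2 gave 154, 31.1, 110.1 and 482 CPM, and Crem 35.9, 206, 23.5 and 25.6 CPM. Ptn gave 155, 418, 115.7 and 127 CPM, Serpine2 125, 366, 49.5 and 39.8 CPM, and Gcc2 317, 184, 206 and 170 CPM. In all, 7 genes were higher in members (0.179% of those tested) and 21 were lower (0.537%), of which 3, Asb4, Calcr and Mc4r, were chosen by the rule. With DESeq2 the counts were 25 and 39. After thinning wells to 18000 UMIs, with 6 plates, 39 member and 97 Mc4r set wells, no gene was higher and 5 were lower, while 263 had an unadjusted p under 0.05; all 24 of the called genes outside the rule that could be tested still had the same direction, and 2, Ptn and Sub1, passed. Beyond this, the part of depth in the calls was not tested.

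Nefl, the neurofilament light chain (chromosome 14, 68083863 to 68089095, GRCm38), ran from 72.8 to 1054 CPM with a median of 502 CPM in members, against 22.8 to 369 CPM with a median of 284 CPM. Members were higher on 8 of 9 plates (log2 fold change 1.19 ± 0.24, SE, edgeR adjusted p = 0.00581), with overlap between the sets. Nefm, the medium chain, was also called (log2 0.98 ± 0.24, adjusted p = 0.0352). In the annotation Nefl and Nefm overlap on opposite strands, and the use of strand in counting is not given in the sources used here, so reads of these neurofilament genes may not be told apart. Nefl lost its call without plate Q7_102 (adjusted p = 0.0517). Nefm lost it without plate Q5_108, Q8_111, Q5_112, Q6_113 or Q7_114 (0.0631 to 0.192).

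Calb2, the calcium-binding protein calretinin (chromosome 8, 110137502 to 110168210), ran from 34.6 to 217 CPM with a median of 129 CPM in members and from 0 to 55.1 CPM with a median of 37.9 CPM in the Mc4r set. Only plate Q5_112 had a lower level in members (log2 1.99 ± 0.47, edgeR adjusted p = 0.0283). A Calb2 count was found in 30 of 60 members and 18.7% of the Mc4r set, or 46.7% and 12.1% after thinning. Pooled Calb2 was 243 CPM in subgroup 1 and 106.4 CPM in the other members. Spock1, which encodes the extracellular proteoglycan testican, had medians of 121 and 41.9 CPM and was higher on 9 of 9 plates (log2 1.79 ± 0.44, adjusted p = 0.0403). Sparcl1, the secreted matricellular protein hevin, had medians of 223 and 100.3 CPM (log2 1.43 ± 0.34, adjusted p = 0.0335), with plate Q5_108 far above the others at 1002 CPM. Gcc2, a golgin of the trans-Golgi network, was also higher (log2 0.92 ± 0.23, adjusted p = 0.0403). These 4 calls depended on single plates. Calb2 lost its call without plate Q7_102, Q5_108, Q6_109, Q8_111, Q6_113 or Q7_114 (adjusted p 0.0533 to 0.157), Spock1, tested in 5 such fits, without Q7_102, Q5_112 or Q5_116 (0.0958 to 0.160), Sparcl1 without Q7_102, Q5_108, Q8_111, Q5_112, Q7_114 or Q5_116 (0.0534 to 0.228), and Gcc2 without any plate but Q7_114 or Q5_116 (0.0611 to 0.188). With subgroup 1 left out of the members, 2 genes were higher and 19 lower, and 9 of the 23 called genes tested there kept their call. All 23 kept their direction. This fit also had fewer plates and wells, 7 plates with 38 member wells against 9 plates with 54, and the 2 changes were not tested apart.

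Among genes outside the rule that passed, those with the largest decrease in members were Tmem114, Rasgrp1, Rrad, Fam210b and Crem. Crem encodes a cyclic AMP responsive transcriptional regulator, Rrad a small GTPase that restrains calcium channels, Rasgrp1 a Ras activator and Fam210b a mitochondrial membrane protein. Tmem114, which encodes a claudin-related membrane protein, had a median of 0 CPM in members and 97.5 CPM in the Mc4r set (log2 -3.50 ± 0.62, edgeR adjusted p = 0.00145). Its members were at or under 13.6 CPM on 8 plates and at 267 CPM on plate Q6_117, where the Mc4r set was also at its highest, 502 CPM. Crem ran from 0 to 99.5 CPM in members and from 77.8 to 326 CPM in the Mc4r set (log2 -2.61 ± 0.53, adjusted p = 0.00589), and plate Q6_113 was the 1 plate where members were higher. Rrad had medians of 6.79 and 109.9 CPM (log2 -2.77 ± 0.53, adjusted p = 0.00323), and Fam210b 12.6 and 166 CPM (log2 -2.75 ± 0.52, adjusted p = 0.00256), both lower on 9 of 9 plates. Rasgrp1 was lower on 8 of 9 plates (log2 -2.92 ± 0.65, adjusted p = 0.0158) and lost its call without plate Q7_102, Q6_109 or Q8_111 (0.0529 to 0.0653). The other 4 of these genes kept their call in each fit without 1 plate in which they were tested.

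Serpine2, Serpina3n, Ecel1, Iah1 and Cystm1 also fell. Serpine2, the secreted inhibitor protease nexin-1 (chromosome 1, 79794197 to 79861180), ran from 12.6 to 299 CPM with a median of 97.0 CPM in members and from 233 to 684 CPM with a median of 391 CPM in the Mc4r set (log2 -1.68 ± 0.30, edgeR adjusted p = 0.00145). Serpina3n, an acute-phase protease inhibitor (chromosome 12, 104406729 to 104414329), had medians of 75.7 and 325 CPM (log2 -1.74 ± 0.35, adjusted p = 0.00573); it belongs to a family of near-identical copies, so its count is uncertain. Ecel1, a membrane metalloprotease of neurons, had medians of 327 and 718 CPM (log2 -1.38 ± 0.25, adjusted p = 0.00211). All 3 were lower on 9 of 9 plates and kept their call without any single plate. Iah1, an esterase that overlaps Adam17 on the opposite strand, and Cystm1, a small membrane protein, gave smaller margins (log2 -1.98 ± 0.46 and -1.40 ± 0.34, adjusted p = 0.0232 and 0.0384). Iah1 lost its call without plate Q5_108, Q8_111 or Q7_114 (0.0529 to 0.136), and Cystm1 without Q7_102, Q8_111, Q5_112, Q6_113, Q7_114 or Q5_116 (0.0611 to 0.147).

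A further 8 genes fell by less and are named after their values were seen. Ptn, the secreted growth factor pleiotrophin (chromosome 6, 36714929 to 36810220), ran from 122 to 388 CPM in members and from 263 to 753 CPM in the Mc4r set (log2 -1.27 ± 0.20, edgeR adjusted p = 3.09e-04), lower on 9 of 9 plates. Sub1, a transcriptional coactivator, had medians of 284 and 793 CPM (log2 -1.08 ± 0.19, adjusted p = 0.00145). Ptn, Sub1 and Nrsn1 kept their call without any single plate. The others were Fth1, the ferritin heavy chain, whose many processed copies make its count uncertain, Ctsl, the lysosomal protease cathepsin L, Scg3, a granin of secretory granules, Nrip3 and Ttc9b, which overlaps Map3k10 on the opposite strand. Fth1 lost its call without plate Q7_102 (adjusted p = 0.0589), Ctsl without Q7_114 (0.104), Scg3 without Q7_102 or Q7_114 (0.0796 to 0.185), Nrip3 without Q7_102, Q6_109 or Q6_113 (0.0507 to 0.0809) and Ttc9b without Q7_102, Q5_108 or Q8_111 (0.0529 to 0.0725). Pooled Ptn was 155 CPM in members, 418 CPM in the Mc4r set and 115.7 CPM in the Tac2 set, and Serpine2 gave 125, 366 and 49.5 CPM. Within members, Ptn and Serpine2 stood at 379 and 376 CPM in subgroup 3, and at 121 and 60.3 CPM in subgroup 1. Leaving out the wells rich in oligodendrocyte markers gave 6 higher and 23 lower genes, and 23 of the 24 called genes tested there kept their call.

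**Figure D4:**
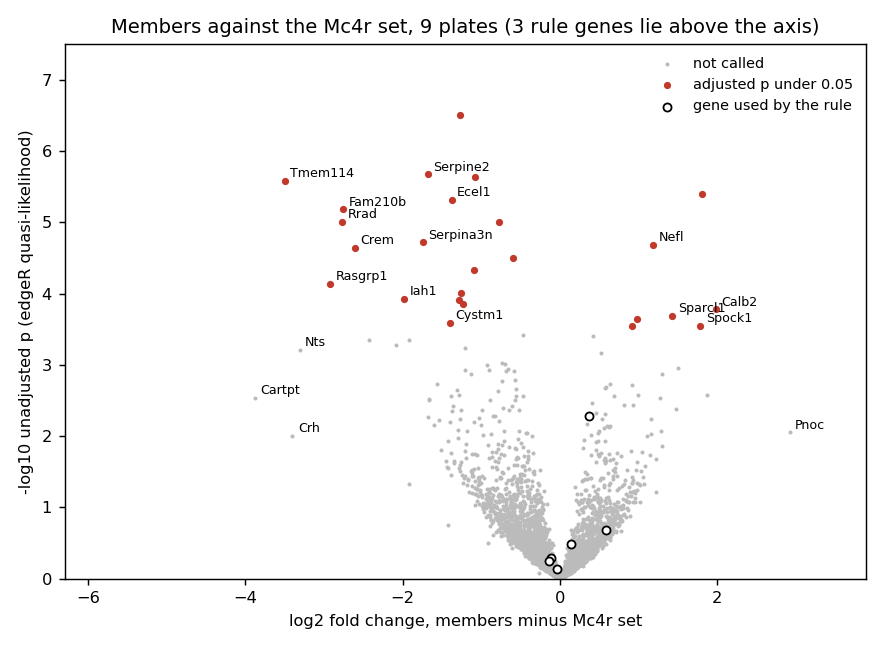
Log2 fold change of members minus the Mc4r set (x axis) against -log10 of the unadjusted edgeR p (y axis) for 3907 genes over 9 plates; red points passed an adjusted p of 0.05 and open circles are genes used by the rule, of which 3 (Asb4, Calcr and Mc4r) lie above the plotted range. The 7 higher genes include Nefl and Calb2, and Nts, Cartpt, Crh and Pnoc have large fold changes but miss the threshold.

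Of 36 neuropeptides 7 could be tested and none passed with edgeR, although several had large fold changes. With 0.179% of all 3907 genes called higher and 0.537% lower, 7 genes are too few to read a share from. Nts ran from 0 to 2110 CPM with a median of 439 CPM in members and from 2450.1 to 5999 CPM with a median of 4352 CPM in the Mc4r set, without overlap, and was lower on 9 of 9 plates (log2 -3.31 ± 0.62, edgeR adjusted p = 0.0685). Cartpt ran from 15.9 to 2644 CPM in members and from 2829 to 9897 CPM in the Mc4r set, also without overlap (log2 -3.88 ± 0.93, adjusted p = 0.172). In both peptides members of plate Q6_117 were the highest. Crh had medians of 0 and 327 CPM (log2 -3.40 ± 0.99, adjusted p = 0.325), and Pnoc 271 and 16.9 CPM (log2 2.92 ± 0.85, adjusted p = 0.312), higher on 7 of 9 plates. DESeq2 called all 4, with adjusted p = 7.00e-05 for Nts, 2.83e-07 for Cartpt, 0.00199 for Crh and 9.57e-04 for Pnoc. With 1 well or more per plate edgeR also called these 4 (adjusted p 5.14e-04 to 0.00503); it called Nts with no replicate block (0.0207), Pnoc with no low count filter (0.00583) or without plate Q6_113 (0.00269) and Crh without plate Q7_114 (4.02e-06). Gal was not separated by edgeR (log2 -0.85 ± 0.54, edgeR adjusted p = 0.796), nor were Penk and Tac1. The median over the 7 peptides was -1.43 on the log2 scale against -0.06 over all genes outside the rule.

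**Figure D5:**
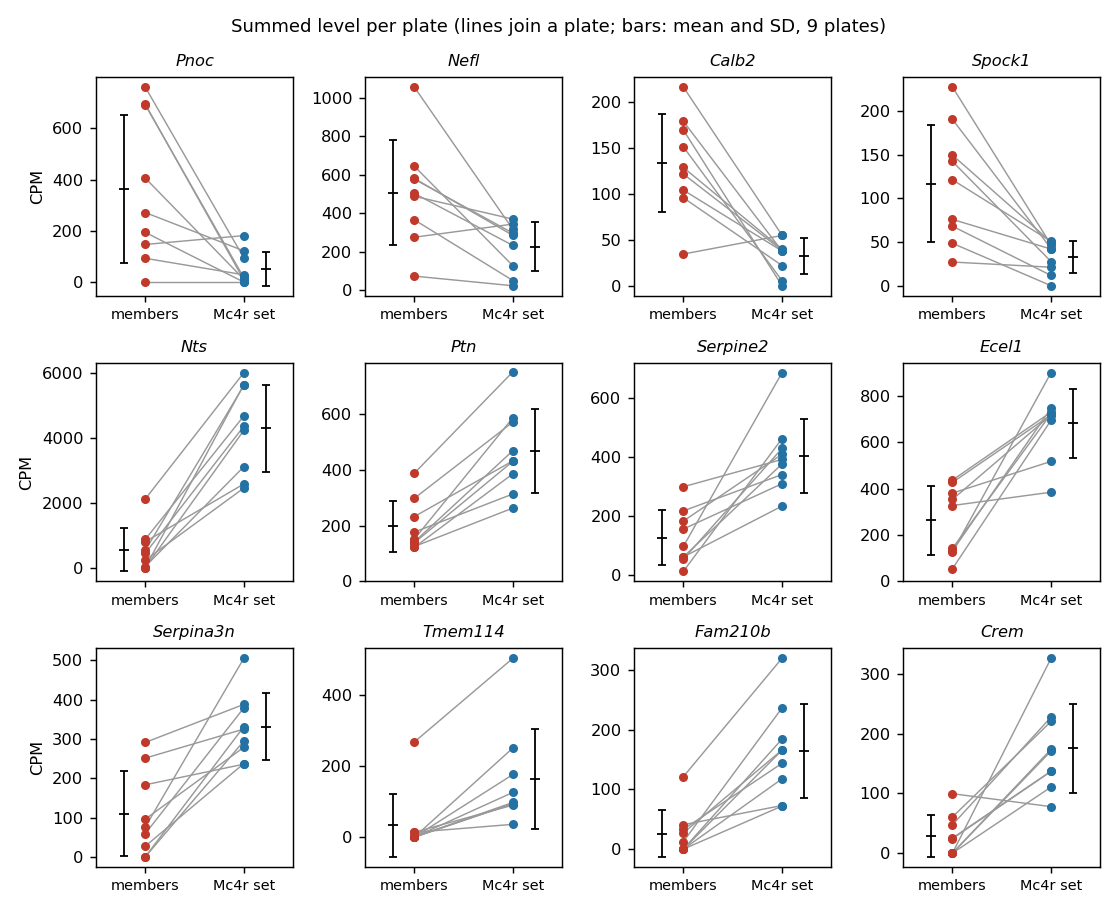
Summed level per plate (y axis, CPM) of 12 genes in members (red) and the Mc4r set (blue), with grey lines joining the 9 plates and black bars giving the mean and SD. Spock1 is higher in members on all 9 plates, Nefl and Calb2 are higher on 8 and Pnoc on 7, Nts, Ptn, Serpine2, Ecel1, Serpina3n, Tmem114 and Fam210b are lower on all 9, and Crem is lower on 8.

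Few genes of the other lists passed against the Mc4r set, where 0.179% of all 3907 genes tested were called higher and 0.537% lower. At these shares a list of this size can hold no call, so the counts below say little about any list. Of 27 GABAergic lineage transcription factors 3 could be tested and none passed: Isl1 (log2 -1.39 ± 0.43, edgeR adjusted p = 0.169), Gsx1 (-1.43 ± 0.62) and Dlx1 (-0.93 ± 0.50); Isl1 passed with DESeq2 (0.0352), with no low count filter (0.0212) and with 1 well or more per plate (0.00184). Among 21 receptors for AGRP neuron outputs, 10 were tested and the only call was Mc4r itself. Their median without Mc4r was 0.08. The GABA-A receptor subunit gene Gabrb1 had means of 349 and 238 CPM, and Gabrq of 63.8 and 121 CPM, and neither passed (adjusted p = 0.293 and 0.303). Of 22 metabolic and steroid hormone receptors 4 were tested, and apart from Calcr none passed; Nr3c1, the glucocorticoid receptor, had medians of 90.0 and 160.0 CPM (adjusted p = 0.390). None of 9 glutamate receptors, 10 potassium channels, 17 sodium, calcium, HCN and TRP channels or 19 adhesion and guidance genes tested passed, with medians of -0.16, 0.32, 0.04 and -0.16. Of 10 calcium-binding protein genes tested 1 passed, Calb2, and of 8 pan-neuronal genes 1, Nefl.

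Against the Tac2 set, on 7 plates with 49 member and 37 Tac2 set wells, 2981 genes were tested and 0 were higher in members (0%), while 2 were lower (0.0671%), of which 1 is Tac2, used by the rule. At an unadjusted p under 0.05 there were 49 higher and 79 lower genes, and DESeq2 called 0 higher and 6 lower. The other gene was Cplx1, which encodes complexin 1, a regulator of synaptic vesicle fusion (chromosome 5, 108518554 to 108550024). It ran from 278 to 681 CPM with a median of 421 CPM in members and from 705 to 1151 CPM with a median of 1036 CPM in the Tac2 set, without overlap (log2 -1.16 ± 0.19, edgeR adjusted p = 0.00995, lower on 7 of 7 plates). The call was lost without plate Q6_113 (adjusted p = 0.0662) and after thinning (log2 -0.83, 0.296), with members that had no count of the 4 genes (-0.85, 0.316) and with at least 3 wells (-1.005, 0.286). Ntm, the cell adhesion protein neurotrimin, just missed the threshold (log2 -1.46 ± 0.29, adjusted p = 0.0568), and it passed with DESeq2 (0.00412), with no low count filter (0.0251) or without plate Q8_111 (0.0438). Cnr1, the cannabinoid receptor, had medians of 54.2 and 224 CPM and was lower on 7 of 7 plates without passing (adjusted p = 0.120).

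No peptide outside the rule was separated from the Tac2 set. Pnoc had medians of 271 CPM in members and 83.7 CPM in the Tac2 set (log2 1.47 ± 0.96, edgeR adjusted p = 0.999), and Gal of 1128 and 1009.5 CPM (0.36 ± 0.49, adjusted p = 0.999). Among the genes of lowest p in the higher direction were Ptpn5, a striatum-enriched tyrosine phosphatase, with means of 354 and 147 CPM, and Elmo1, a cytoskeletal regulator, with 224 and 79.3 CPM. Both were higher in members on 7 of 7 plates and neither passed (adjusted p = 0.521). Members were also shallower than the Tac2 set, with lower median UMIs on 7 of 7 plates (exact permutation p = 0.0156, the smallest 7 plates can give). The Tac2 limit is one of absolute counts, so depth and membership can be tied by the rule here too, which was not tested.

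Against the glutamatergic set only 5 of 2670 genes passed, on 6 plates with 45 member and 24 glutamatergic wells. The 2 higher genes were Gad1 and Gad2 (0.0749%), and the 3 lower ones (0.112%) were Slc17a6, 6330403K07Rik and Otp; the decarboxylases and Slc17a6 were chosen by the rule. At an unadjusted p under 0.05 there were 134 genes, and DESeq2 called 6 higher and 8 lower. Otp, a homeobox factor of hypothalamic neuroendocrine lineages, was at 0 in members on 5 of 6 plates and had all its 9 member counts in 1 well of plate Q5_112. In the glutamatergic set it ran from 29.0 to 581 CPM with a median of 238 CPM (log2 -4.94 ± 0.93, edgeR adjusted p = 0.0251). It lost its call without plate Q5_108, Q6_109, Q8_111, Q6_113 or Q7_114 (0.0552 to 0.178). 6330403K07Rik, named after its values were seen, was lower without overlap (log2 -1.01 ± 0.18, adjusted p = 0.0128) and lost its call without plate Q8_111 or Q6_113 (0.115 and 0.0718).

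No peptide passed against the glutamatergic set with edgeR. Penk had medians of 327 and 34.3 CPM and was higher on 6 of 6 plates (log2 2.59 ± 0.66, edgeR adjusted p = 0.230), and Gal had medians of 1555 and 10.1 CPM, higher on 5 of 6 (5.40 ± 1.58, adjusted p = 0.774). Pnoc had medians of 209 and 37.4 CPM, higher on 5 of 6 (2.50 ± 0.73, adjusted p = 0.429). DESeq2 called Penk and Gal (adjusted p = 0.00249 and 3.00e-06) but not Pnoc (0.536), with no low count filter edgeR called Penk and Pnoc (0.0021 and 0.00479), and without plate Q6_109 edgeR also called Gal (7.71e-11). Syt1, the calcium sensor of vesicle release, ran from 626 to 1110.2 CPM in members and from 246 to 595 CPM in the glutamatergic set without overlap and did not pass (adjusted p = 0.198). Median UMIs were lower in members on 6 of 6 plates (exact permutation p = 0.0313, the smallest 6 plates can give).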

How the data were processed

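Each of 19 plates of hand-picked LHA cells is 1 sample. The authors deposited raw counts of each gene in each well. A deposited table of the wells adds the ERCC percent. The tools listed, per the submitters' processing notes, are STARsolo 2.7.5c, STAR 2.7.5c, cutadapt 2.1.0, bcl2fastq 2.20, R 3.4.3 and Seurat 2.3.4, with build GRCm38. Annotation, strand and UMI collapsing are not given in the sources used here, so a deposited count is called a UMI here after the library method only. Gene identifiers were matched to GENCODE M21 (99.6%). LHA wells summed to 1835746 to 5070306 counts per plate.

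Counts were summed per plate and set, on plates with at least 2 wells of each, then compared in edgeR 4.0.16 by its robust quasi-likelihood test after filterByExpr and TMM. Plate was a block because both sets share the library of a plate. Each SE was derived from the fold change and its F value (fold change over root F), so it restates the test. DESeq2 1.42.0 was an alternative. The 3 comparisons share the member wells. Subgroups came from scanpy 1.11.5 and leidenalg 0.10.2 (1000 variable genes, 15 components, 10 neighbours, resolution 1). Intervals are exact (Clopper-Pearson) and cover counting error only. The edgeR fit was also run on simulated counts with known changes, built from each comparison. It recovered 50.8% (Mc4r set), 39.0% (Tac2 set) and 40.8% (glutamatergic set) of 2-fold changes. Of 4-fold changes it recovered 96.4%, 90.7% and 83.0%, in the same order. The members, gene lists and alternatives were chosen with earlier results of these data known. Genes were named per comparison as the 10 largest changes in each direction with an adjusted p under 0.05, a log2 change of 1 or more, 20 CPM or more in the higher set and 1 direction in 80% of plates, filled up by lowest p, with up to 4 genes of each list, up to 5 leading genes per subgroup, and the fixed peptide and transcription factor lists at 20 CPM or more. Predicted, mitochondrial and rule genes were left out. qRNA wells were not analysed here. Some genes that the naming rule selects are not reported here; counts of genes include them.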

Additional observations from a re-analysis of the deposited data

Results flagged for a closer look

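In 7 of 36 groups of plate levels examined, 1 plate stood apart from the others by Dixon's gap test. Chance flags about 1 group in 20 where levels are normally distributed. Many of these levels lie at or near 0 and some plates hold few wells, so the 7 flags cannot be read against that rate. In members, Sparcl1 was at 1002 CPM on plate Q5_108 (next 433 CPM) and Otp at 156 CPM on plate Q5_112, with 0 on the other 5 plates. Plate Q6_117, with 2 member and 2 Mc4r set wells, stood apart in 5 groups: members of Tmem114 at 267 CPM (next 13.6 CPM), of Rasgrp1 at 97.0 CPM (next 20.4 CPM) and of Fam210b at 121 CPM (next 40.8 CPM), and the Mc4r set for Tmem114 at 502 CPM (next 250.3 CPM) and Serpine2 at 684 CPM (next 461 CPM). Without plate Q6_117, 8 genes were higher and 27 lower in members than in the Mc4r set.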

How the results depend on the processing

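In the comparison with the Mc4r set, 7 genes were higher and 21 lower. The higher count moved to 25 with DESeq2, 3 with no replicate block (plates not paired), 4 with at least 3 wells, 0 after thinning to 18000 UMIs and 2 without members of subgroup 1, which were left out after seeing the data. The lower count moved to 39 with DESeq2, 61 with no low count filter, 55 with at least 1 well and 5 after thinning. Leaving out each plate gave 2 to 8 higher and 17 to 27 lower genes: 2 higher without plate Q7_102 or Q8_111, 3 without Q5_108 or Q7_114 and 4 without Q6_109 or Q5_112. Among the 25 called genes outside the rule, 24 were called by DESeq2, 25 with RLE factors, 17 with no replicate block and 16 with members that had no count of the 4 genes. Without subgroup 1, 9 of the 23 tested were called, and after thinning 2 of 24. Directions were compared only for the called genes outside the rule and for Nts, Cartpt, Pnoc, Crh, Isl1, Ntm, Gal and Penk. None of these changed direction in any alternative that tested it. Against the Tac2 set, 0 were higher and 2 lower; 1 was higher with no low count filter, and 6 were lower with no low count filter and with DESeq2. The lower count was 1 with strict members, after thinning and with at least 3 wells, and 1 to 3 with a plate left out (3 without plate Q6_109 or Q8_111, 1 without Q6_113). Against the glutamatergic set, 2 higher and 3 lower became 6 and 8 with DESeq2, 10 and 15 with no low count filter, 4 and 2 after thinning; the higher count was also 3 with at least 1 or 3 wells, and the lower count 2 with no replicate block, with at least 3 wells and with strict members, and 1 to 4 with a plate left out. The cause of these changes was not tested. Thinning also left fewer plates and wells, and these were not tested apart. The same holds against the Mc4r set for strict members and for members without subgroup 1, each with 7 plates and 38 member wells. The difference in UMIs stayed negative in all settings, and missed the threshold with members that had no count of the 4 genes (-2860 UMIs). The members' share was 11.9% with those strict members and 18.7% with Hcrt and Pmch under 0.2%. Filters on UMIs and mitochondrial share removed no well. With 60 wells, genes of few counts could not be tested, and counts of 0 limit only what these depths show.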
